A study of Mus musculus with 4 samples.

Results

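The 8 genes described here (Lgr5, Olfm4, Ascl2, Smoc2, Axin2, Rnf43, Gkn3 and Sfrp5) are widely used to mark stem cells of the mouse small intestine. They were taken as a named list, and all 8 were among the 14982 genes measured in both small intestine tables. The study sequenced C57BL/6J mice, an inbred laboratory strain, without any treatment, and set clumps of 2 or more attached cells (multiplets) beside single cells (singlets) in order to work out which cell types a clump contains. The small intestinal epithelium gave 1 multiplet library of 3671 barcodes and 1 singlet library of 5279 barcodes. The labels name no separate animals, ages or sexes, so there was 1 library per group and no replicate. No test was run, and each interval below is an exact 95% interval that covers counting error only.

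The epithelium of the small intestine is renewed from crypts, at whose base columnar stem cells sit between Paneth cells, which secrete antimicrobial peptides and growth signals. Wnt ligands and R-spondins sustain the stem cells, whose daughters divide as transit amplifying cells, become progenitors and move up the villus as absorptive or secretory cells. Several of the genes belong to the Wnt pathway itself. Lgr5 is a receptor for R-spondins, Ascl2 is a transcription factor switched on by Wnt signals, and Axin2, Rnf43 and Sfrp5 limit the pathway at the destruction complex, the Frizzled receptor and the Wnt ligand.

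The genes lie on 7 chromosomes. On the GRCm38 assembly, with GENCODE annotation, Lgr5 spans chr10:115450311-115587780 on the minus strand and overlaps the gene A930009A15Rik on the other strand. Olfm4 spans chr14:79984081-80023139 on the plus strand and overlaps the noncoding gene Gm6999 on the same strand. Ascl2 spans chr7:142966829-142969264, Gkn3 spans chr6:87383256-87388935 and Sfrp5 spans chr19:42197971-42202252, all on the minus strand and without an overlapping gene. Smoc2 spans chr17:14279506-14404790, Axin2 spans chr11:108920349-108950783 and Rnf43 spans chr11:87662722-87735539, all on the plus strand. Smoc2 and Axin2 each overlap an annotated antisense gene, and Rnf43 overlaps a small nuclear RNA gene on the other strand and a sense intronic gene on its own strand. The sources used here do not say how reads in such overlaps were assigned.

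The 250 bases before the transcript start are shown for 3 genes whose products act at different levels of Wnt control, because all 8 genes shared the pattern over cell classes described below. They come from the RefSeq table of promoters for GRCm38.p6, which held 7 promoters for 6 of the 8 genes, not including Lgr5 and Smoc2. Capitals mark a match to an E-box of the kind CAGCTG or CACCTG, searched on both strands, the general class of site bound by basic helix-loop-helix factors such as Ascl2.
Ascl2, chr7:142969265-142969514, minus strand: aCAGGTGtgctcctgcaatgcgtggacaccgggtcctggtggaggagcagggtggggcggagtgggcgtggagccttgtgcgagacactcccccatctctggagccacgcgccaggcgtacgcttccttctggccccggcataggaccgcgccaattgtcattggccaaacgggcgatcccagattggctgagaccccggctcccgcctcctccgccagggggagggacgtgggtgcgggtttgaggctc
Sfrp5, chr19:42202253-42202502, minus strand: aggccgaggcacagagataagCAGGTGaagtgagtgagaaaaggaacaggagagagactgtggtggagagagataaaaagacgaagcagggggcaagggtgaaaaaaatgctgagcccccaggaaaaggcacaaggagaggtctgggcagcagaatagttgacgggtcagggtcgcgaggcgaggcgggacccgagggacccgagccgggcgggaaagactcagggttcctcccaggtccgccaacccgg
Axin2, chr11:108920099-108920348, plus strand: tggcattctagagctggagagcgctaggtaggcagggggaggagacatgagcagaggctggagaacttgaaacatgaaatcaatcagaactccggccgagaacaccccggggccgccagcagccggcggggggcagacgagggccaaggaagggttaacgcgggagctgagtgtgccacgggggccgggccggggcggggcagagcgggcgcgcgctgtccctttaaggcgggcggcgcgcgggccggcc

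The E-box motif was found in 2 of the 7 promoters, those of Ascl2 and Sfrp5, where it read CACCTG on the strand opposite to the gene. It lay 249 bases before the Ascl2 start and 229 bases before the Sfrp5 start. Of the 32851 promoters in the table, 27.7% held such a match. The TCF/LEF motif of Wnt-responsive genes (CTTTGAA or CTTTGAT, and likewise CTTTGTA or CTTTGTT, on both strands) was found in 0 of the 7 promoters and in 14.8% of all promoters. A match is a string of letters in this window and not a measured binding site.

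The cell classes are those the authors deposited for the singlets. Of the 5279 singlets, 587 were labelled stem, 1048 transit amplifying, 1162 early progenitor, 728 late-1 progenitor, 203 late-2 progenitor and 191 enterocyte, and a further 985 goblet, 88 Paneth, 112 tuft and 175 enteroendocrine. Median depth was 12603 UMIs per multiplet barcode and 8759 per singlet barcode, and within singlets it ranged between 5655 in enteroendocrine cells and 25594.5 in Paneth cells. UMIs are unique molecular identifiers, so that each counts 1 captured RNA molecule. The libraries shared 4 barcodes. Scrublet, a doublet caller, marked 85 singlets (1.61%), 1 of them in the stem class, and these cells were kept. The sources used here do not say which genes the authors used to assign the classes, so differences between classes are given as a description.

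All 8 genes were highest in the stem class, and together the list summed to 14493 UMIs per 1000000 UMIs (CPM) there, against 5236 CPM in transit amplifying cells. The label of the class therefore matched the 8 genes. Markers of the cell cycle, a list of 8 genes of DNA replication and mitosis, were low in the stem class, at 247 CPM, and reached 2358 CPM in transit amplifying cells. Of the 7 immune markers searched for, 5 were in the singlet table, and they summed to 121 CPM in the stem class and 48.1 CPM in transit amplifying cells, nearly all of it Cd74, an antigen presentation gene, at 119 and 47.6 CPM, with Ptprc, C1qa, Lyz2 and Cd79a at 0, 0, 0.28 and 1.67 CPM in the stem class. Of the fibroblast, endothelial and red cell markers, 2 of 6, 1 of 4 and 2 of 4 were in the singlet table. They summed to 0.837, 0.837 and 0.558 CPM in the stem class. Paneth, goblet and enterocyte markers summed to 1124, 538 and 245 CPM there, against 584723, 130514 and 76664 CPM in their own classes. Enteroendocrine and tuft markers summed to 6.97 and 2.51 CPM in the stem class.

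Lgr5 marked the stem class with the steepest decline of the list. It had 196 CPM (182 to 211) in stem cells, 41.5 CPM (37.8 to 45.4) in transit amplifying cells, 20.6 CPM (17.8 to 23.6) in early progenitors and 0.75 CPM (0.24 to 1.76) in late-1 progenitors. No Lgr5 UMI was found among 1663393 UMIs of late-2 progenitors, a depth at which 3 counts equal 1.80 CPM. Outside this series Lgr5 stood at 65.2 CPM (47.7 to 86.9) in tuft cells and between 2.00 and 5.2 CPM in enterocytes, goblet, Paneth and enteroendocrine cells. Stem cells, which gave 7.51% of all singlet UMIs, thus carried 47.9% of the Lgr5 UMIs. The intervals of the 4 highest classes (stem, tuft, transit amplifying, early progenitor) were separated in pairwise ratios, whereas neighbours in the order from Paneth cells downward differed by no more than counting error.

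Olfm4, a secreted glycoprotein of crypt base cells, was abundant enough to be read in single cells. It had 13112 CPM (12994 to 13232) in stem cells, 4667 CPM (4626 to 4707) in transit amplifying cells, 3417 CPM (3380 to 3454) in early progenitors and 142 CPM (133 to 151) in late-1 progenitors, or 90.5 CPM (83.4 to 98.1) without the 7 late-1 cells marked by Scrublet. With each cell thinned to 1500 UMIs, it was present in 99.8% of stem cells (99.1% to 100%), 73.0% of transit amplifying cells, 65.1% of early progenitors and 7.69% of late-1 progenitors. The median stem cell had 19 Olfm4 UMIs of 1500, with a 5th percentile of 8 and a 95th percentile of 36. The median was 5 in transit amplifying cells and 3 in early progenitors, whose highest cells reached 51 and 64.

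Ascl2, the Wnt-driven transcription factor, had 190 CPM (176 to 204) in stem cells, 94.1 CPM (88.5 to 100) in transit amplifying cells, 61.2 CPM (56.3 to 66.3) in early progenitors and 2.86 CPM (1.72 to 4.47) in late-1 progenitors. Its level in tuft cells, 110 CPM (87.3 to 138), was second to stem cells, and the tuft level could not be separated from that of transit amplifying cells (ratio 1.17, 0.92 to 1.48). Smoc2, a secreted calcium-binding matrix protein, had 401 CPM (380 to 422) in stem cells, 192 CPM (184 to 201) in transit amplifying cells, 151 CPM (144 to 159) in early progenitors and 24.5 CPM (20.9 to 28.6) in late-1 progenitors. Smoc2 was also found in other lineages, with 184 CPM (154 to 219) in tuft cells, 99.8 CPM (81.7 to 121) in enteroendocrine cells and 57.4 CPM (52.6 to 62.6) in goblet cells. Transit amplifying and tuft cells did not differ in Smoc2 beyond counting error.

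**Figure D1:**
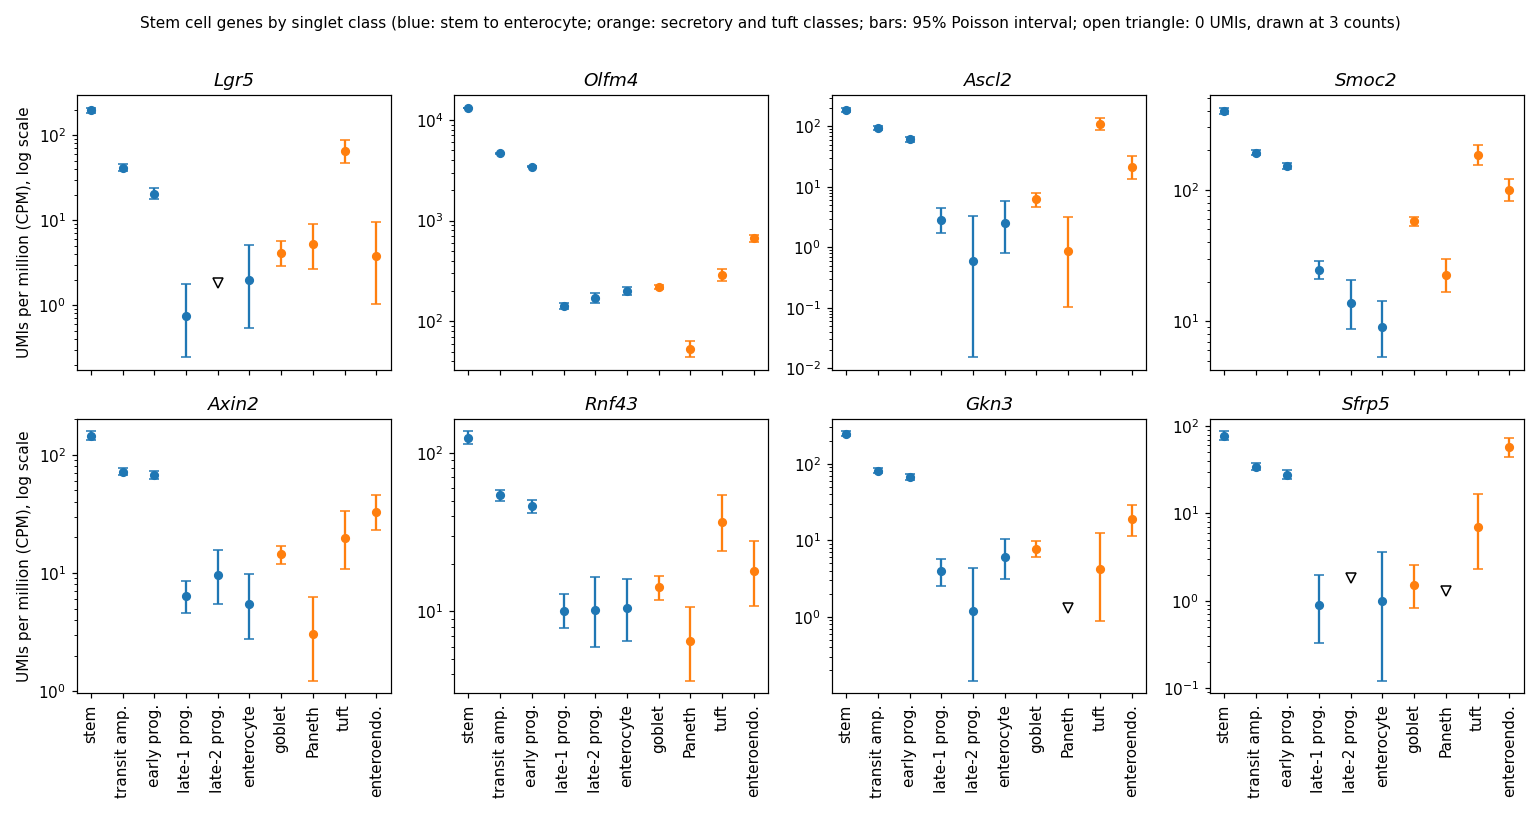
CPM of summed UMIs (log axis, one panel per gene) in the 10 singlet classes, with 95% Poisson intervals; open triangles stand for classes with 0 UMIs and are drawn at the level of 3 counts. Every panel is highest at stem, and Lgr5, Ascl2 and Smoc2 have a second high point in tuft cells, at 65.2, 110 and 184 CPM, whereas Sfrp5 has it in enteroendocrine cells, at 57.4 CPM.

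The inhibitors of the Wnt pathway followed the same order. Axin2, a scaffold of the complex that destroys beta-catenin, had 145 CPM (133 to 158) in stem cells, 71.8 CPM (66.9 to 77.0) in transit amplifying cells, 67.8 CPM (62.6 to 73.2) in early progenitors and 6.32 CPM (4.56 to 8.55) in late-1 progenitors. Rnf43, a ubiquitin ligase that removes Frizzled receptors, had 124 CPM (113 to 137), 53.9 CPM (49.7 to 58.4), 46.0 CPM (41.8 to 50.6) and 10.1 CPM (7.82 to 12.8) in the same 4 classes. Both were still found in later classes, with 9.62 CPM of Axin2 and 10.2 CPM of Rnf43 in late-2 progenitors. Sfrp5, a secreted protein that binds Wnt ligands, had 77.3 CPM (68.4 to 86.9) in stem cells, 34.4 CPM (31.0 to 38.1) in transit amplifying cells, 27.8 CPM (24.6 to 31.4) in early progenitors and 0.90 CPM (0.33 to 1.97) in late-1 progenitors. Its second highest class was enteroendocrine, the hormone-secreting cells, at 57.4 CPM (43.9 to 73.7), against which stem cells were 1.35-fold higher (1.02 to 1.81).

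Gkn3, a secreted protein of the gastrokine family, had 247 CPM (231 to 264) in stem cells, 81.5 CPM (76.2 to 87.0) in transit amplifying cells, 67.0 CPM (61.9 to 72.4) in early progenitors and 3.92 CPM (2.56 to 5.74) in late-1 progenitors. It had a UMI in 53.7% of the 587 stem cells without thinning, and the highest cell held 14 UMIs. Lgr5, at a lower level, had a UMI in 64.2% of them and at most 6 UMIs in a cell. Gkn3 and Sfrp5 had no UMI among the 2308303 UMIs of Paneth cells, where 3 counts equal 1.30 CPM.

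The decline was not spread evenly over the stages. Between stem and transit amplifying cells all 8 genes were higher in stem cells by more than 1.5-fold, a size exceeded in this direction by 11.4% of the 9315 genes with at least 50 UMIs in either class. Their median ratio was 2.28, led by Lgr5 at 4.73 (4.20 to 5.33), Gkn3 at 3.03 (2.76 to 3.33) and Olfm4 at 2.81 (2.77 to 2.85), with Ascl2 and Axin2 lowest, both at 2.02 (1.83 to 2.22 and 1.80 to 2.25). The step of Lgr5 was larger than that of every other gene of the list, by 0.64 on the log2 scale over Gkn3 (0.42 to 0.86) up to 1.23 over Ascl2 (1.01 to 1.45).

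Between transit amplifying cells and early progenitors the genes were nearly level. Lgr5, at 2.02 (1.70 to 2.40), and Ascl2, at 1.54 (1.39 to 1.71), were higher in transit amplifying cells by more than 1.5-fold, against 7.97% of all genes, and Lgr5 also by more than 2-fold, against 3.49%. The other 6 ratios lay between 1.06 for Axin2 (0.95 to 1.18) and 1.37 for Olfm4 (1.35 to 1.38). Over both steps Lgr5 was 9.54-fold higher in stem cells than in early progenitors (8.13 to 11.2), and Axin2 was 2.14-fold higher (1.90 to 2.40).

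The largest step lay between early and late-1 progenitors. All 8 genes were higher in early progenitors by more than 1.5-fold, against 27.8% of all genes, with a median ratio of 19.2. Sfrp5 had a ratio of 30.8 (13.9 to 84.6), Lgr5 of 27.3 (11.5 to 85.0), Olfm4 of 24.1 (22.6 to 25.8) and Ascl2 of 21.4 (13.6 to 35.8). Smoc2, at 6.17 (5.24 to 7.30), and Rnf43, at 4.56 (3.52 to 5.99), declined least. Without the Scrublet doublets, which held 3 of the 5 Lgr5 UMIs of late-1 progenitors, the ratio was 64.8 for Lgr5, 60.4 for Sfrp5, 39.4 for Ascl2 and 37.8 for Olfm4, so that the order of the largest ratios is not settled. The ratios of Lgr5 and Sfrp5 then rested on 2 and 3 UMIs in late-1 progenitors. In late-1 progenitors 50 UMIs were reached by Olfm4, Smoc2 and Rnf43 alone, and the other 5 genes were counted through early progenitors, the class with more UMIs. All 8 genes were also higher in early than in late-2 progenitors, against 32.6% of all genes. Only Olfm4, with 282 UMIs, reached 50 UMIs in late-2 progenitors. The other genes were counted through early progenitors, where they were high, so that count carries no weight of its own. Lgr5 and Sfrp5, with 0 UMIs in late-2 progenitors, were at least 11.4-fold and at least 15.4-fold higher when set against 3 counts.

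**Figure D2:**
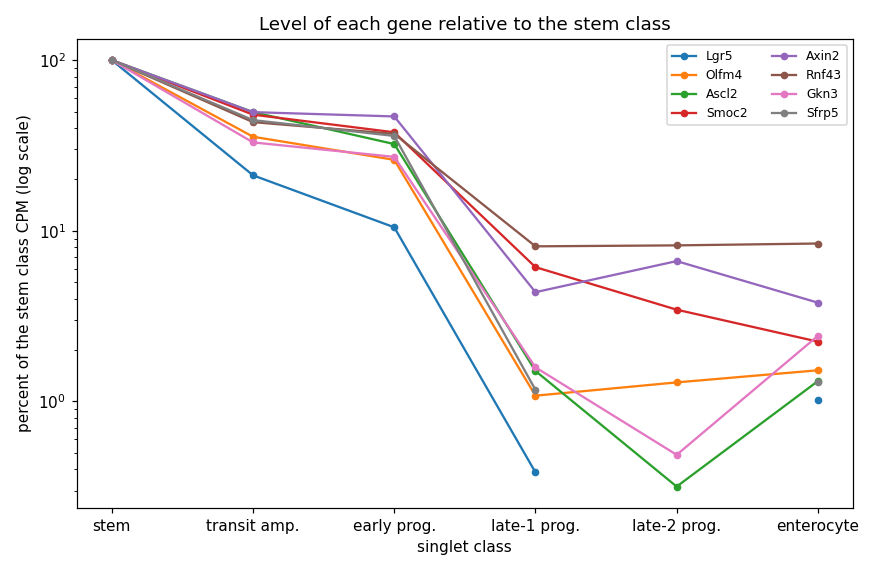
Level of each gene as a percent of its level in the stem class (log axis) over the absorptive classes; classes with 0 UMIs (Lgr5 and Sfrp5 in late-2 progenitors) are not drawn. Lgr5 runs below the other 7 genes in transit amplifying cells and early progenitors, at 21.1% and 10.5% of its stem level, and Rnf43 levels off near 8% in the later classes, at 8.11%, 8.21% and 8.42%.

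The cell cycle differed between the classes as well. With cells thinned to 1500 UMIs, 71.0% of transit amplifying cells, 32.9% of early progenitors and 8.35% of stem cells had at least 2 cycling marker UMIs. When cells above that limit were set aside, all 8 genes remained higher by more than 1.5-fold in the 538 stem cells than in the 304 transit amplifying cells left, against 11.1% of all genes, with Lgr5 at 3.85 (3.22 to 4.64), Olfm4 at 2.30 (2.26 to 2.35) and Sfrp5 at 1.89 (1.51 to 2.37). Within the stem class the 49 cycling cells were set beside the 538 others. Lgr5 had 229 CPM in cycling and 193 CPM in other stem cells, a ratio of 1.18 (0.90 to 1.53), and Olfm4 had 13181 CPM in cycling and 13106 CPM in other stem cells. Ascl2, at 132 CPM in cycling and 195 CPM in other stem cells, gave the ratio farthest from 1, 0.68 (0.47 to 0.94), and none of the 8 genes passed 1.5-fold in either direction, against 20.4% of all genes. Ascl2, Axin2, Rnf43 and Sfrp5 had 38, 35, 34 and 24 UMIs in the cycling stem cells and were counted through the others. Their intervals reached past 1.5-fold, so a difference of that size could not be told. With cycling set at 4 UMIs, which left 4 cells, 3 genes passed 1.5-fold, against 77.3% of all genes. Among transit amplifying cells the cycling ones had less Lgr5, with 38.3 CPM against 50.2 CPM in the others (ratio 0.76, 0.63 to 0.94), and less Olfm4, with 4295 CPM against 5687 CPM (ratio 0.76, 0.74 to 0.77). Rnf43, at 0.82 (0.69 to 0.98), and Sfrp5, at 0.79 (0.63 to 0.99), were lower there too, and the intervals of the other 4 genes included 1. With cycling set at 4 UMIs the ratio was 0.997 for Lgr5 (0.83 to 1.20) and 0.83 for Sfrp5 (0.67 to 1.03), and the intervals of Olfm4 at 0.80 (0.78 to 0.81), Rnf43 at 0.82 (0.70 to 0.97) and Gkn3 at 0.84 (0.73 to 0.96) lay below 1. In early progenitors the ratio for Lgr5 at 2 UMIs was 1.30 (0.97 to 1.75).

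Most of the genes were caught in only some stem cells at a given depth. At 1500 UMIs per cell, Lgr5 had a UMI in 25.6% of stem cells (22.1% to 29.3%), 7.06% of transit amplifying cells (5.58% to 8.78%) and 3.27% of early progenitors (2.32% to 4.46%). Without thinning these shares were 64.2%, 24.7% and 12.5%. Cell classes not known for Lgr5 gave the background share. At 1500 UMIs Lgr5 had a UMI in 0.508% of goblet cells and 0.275% of late-1 progenitors. It had none in the 191 enterocytes, where 3 cells equal a share of 1.57%. Without thinning, 3.05% of goblet cells had an Lgr5 UMI at a median depth of 8905 UMIs, and 1.05% of enterocytes at a median of 11039. Of the 38 Lgr5 UMIs of goblet cells, 26 remained without the Scrublet doublets, and how much of the background was free RNA was not tested. The other genes were found in 10.9% (Sfrp5) to 46.7% (Smoc2) of thinned stem cells, apart from Olfm4, described above.

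More of the genes were found together in a stem cell than in other cells. At 1500 UMIs the mean stem cell showed 2.76 of the 8 genes, the mean transit amplifying cell 1.57, the mean early progenitor 1.27 and the mean late-1 progenitor 0.13. At least 3 of the genes were found in 57.8% of stem cells (53.6% to 61.8%), 21.9% of transit amplifying cells (19.5% to 24.6%) and 13.9% of early progenitors (12.0% to 16.1%), and in 1 of 728 late-1 progenitors. At 5000 UMIs, which left out 126 shallower stem cells, at least 3 were found in 95.4% of stem cells and at least 5 in 59.0%. Among the 461 stem cells of that depth, 275 had an Lgr5 UMI and 186 had none. Mean Olfm4 was 67.2 UMIs of 5000 in cells with an Lgr5 UMI and 61.8 UMIs in those without, and Ascl2 was found in 61.8% of cells with and 52.2% of cells without. Mean Ascl2 UMIs were 0.96 with and 0.99 without, and Sfrp5 was found in 27.6% of cells with and 28.5% of cells without. Over the 21 pairs of genes other than Olfm4, the phi coefficient in these cells lay between -0.06 and 0.17, which in sparse counts is no finding.

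**Figure D3:**
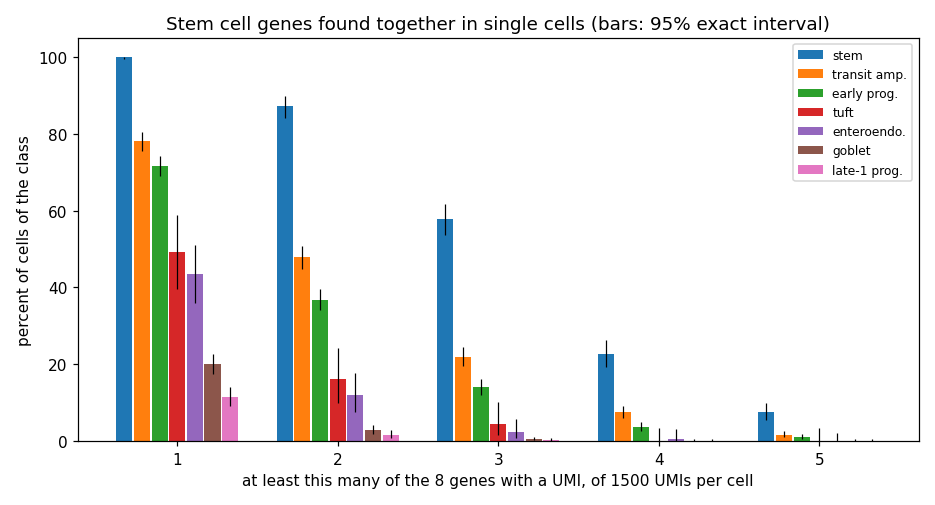
Percent of cells of 7 classes in which at least 1 to 5 of the 8 genes had a UMI, with every cell thinned to 1500 UMIs and 95% exact intervals as lines. Stem cells stand above all other classes drawn at each number, with 57.8% at 3 genes or more, against 21.9% of transit amplifying cells and 4.46% of tuft cells.

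Tuft cells, chemosensory cells of the epithelium, carried some genes of the list and not others. Lgr5 had a UMI in 33 of 112 tuft cells (29.5%), Ascl2 in 45 (40.2%) and Smoc2 in 55 (49.1%), at a median depth of 6107 UMIs. Gkn3 had 3 UMIs, all in 1 cell, and Olfm4 had 290 CPM, with 84.4% of its UMIs in 10 cells. The tuft to goblet ratio was 15.8 for Lgr5 (10.03 to 24.9) and 17.8 for Ascl2 (12.5 to 25.5), beside 1.34 for Olfm4 (1.15 to 1.55). Goblet cells without Scrublet doublets had 3.06 CPM of Lgr5 and 3.88 CPM of Ascl2. The 33 tuft cells with an Lgr5 UMI had 12451 CPM of 7 tuft markers and 241 CPM of Olfm4, against 10916 and 308 CPM in the 79 without one. Ascl2 and Smoc2 differed from Lgr5 in this. Olfm4 stood at 428 CPM in tuft cells with an Ascl2 UMI and 182 CPM in those without, and at 502 CPM in tuft cells with a Smoc2 UMI and 54.0 CPM in those without. The part of stem cell RNA in these levels was not tested. Scrublet marked 8 of the 112 tuft cells, and without them Lgr5 stood at 73.3 CPM, Ascl2 at 111 CPM and Smoc2 at 195 CPM, with Gkn3 at 0 UMIs.

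In enteroendocrine cells the pattern was another one. Sfrp5 had a UMI in 47 of 175 cells (26.9%) at a median depth of 5655 UMIs, beside 1.02% of goblet cells, while Lgr5 had a UMI in 3 cells. Olfm4 had 667 CPM there, with 64.5% of its UMIs in 10 cells. Without the 6 enteroendocrine cells marked by Scrublet, Sfrp5 was at 61.9 CPM and Olfm4 at 590 CPM.

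Other genes of the Wnt pathway followed the list only in part. Of 12 Wnt receptors and co-receptors, 7 had at least 50 UMIs in either class, and 2 of them were higher in stem than in transit amplifying cells by more than 1.5-fold, a size passed by 11.4% of all genes: Fzd2 at 2.26 (1.59 to 3.19) and Fzd7 at 1.90 (1.33 to 2.71). Lgr4, the relative of Lgr5, was nearly level at 75.3 CPM in stem and 60.0 CPM in transit amplifying cells, and the receptors Fzd5 and Ryk had the lowest ratios, 0.68 and 1.07. Among feedback genes, 2 of 4 counted were higher (11.4% of all genes), Tnfrsf19 at 2.67 (1.97 to 3.62) and Znrf3, the partner ligase of Rnf43, at 1.79 (1.31 to 2.43), while the destruction complex genes Axin1 and Apc had ratios of 0.89 and 1.07. Of the 11 transcription factors and targets counted, 4 were higher, against the same 11.4%, namely Sp5 at 3.80 (3.19 to 4.54), Sox9 at 2.55 (2.26 to 2.88), Cd44 at 2.54 (2.19 to 2.93) and Myc at 1.52 (1.31 to 1.74). None of the 11 was lower, and Ephb2 and Cdx2 had the lowest ratio, both 1.04. No Wnt ligand or R-spondin reached 50 UMIs in either class, and Wnt3, a Paneth cell ligand, had 4.46 CPM in stem cells, 1.63 CPM in transit amplifying cells and 76.7 CPM in Paneth cells.

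Other genes known from crypt base columnar cells behaved more uniformly. Of 19 counted, 18 were higher in stem cells by more than 1.5-fold, against 11.4% of all genes, with a median ratio of 2.02, led by Phlda1 at 4.28 (3.79 to 4.85) and Soat1 at 3.30 (2.98 to 3.66), and none was lower. Esrrg at 1.51 and Bmi1, the exception at 1.27 (0.96 to 1.66), had the lowest ratios. This list was drawn from earlier stem cell signatures, so its direction is not independent of the class label. Of 15 counted genes of Notch, BMP and EGF receptor signalling, 5 were higher, against 11.4% of all genes, among them the Notch ligand Dll1 at 2.70 (1.92 to 3.77), the ligase Dtx4 at 2.06 and the Notch target Hes1 at 1.58, with Erbb3 at 1.85 and Notch1 at 1.504. In the same list 1 gene was lower, Id3, a BMP target, at 0.54, with Id2 next at 0.69.

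The genes most like the list in their profile over the 10 classes were found by the Pearson correlation of log2(CPM + 1) among 2737 genes with at least 50 CPM in stem cells. Among the genes closest to the mean profile of the 8 genes were Cd44 (r = 0.9498), Mcm2 (0.948), Cd320 (0.946), Igfbp4 (0.944), Wwp1 (0.942), Paics (0.936) and Myc (0.933). Of these, Cd44 had 96.5 CPM in stem and 38.0 CPM in transit amplifying cells, while Mcm2, a replication factor, had 59.7 and 59.3 CPM, so that likeness over 10 classes did not require the stem cell step. The closest genes were Nrtn, Slco3a1 and Utrn for Lgr5, and Cd44 and Nrtn were among the closest for Ascl2. They were Slco3a1, Vgll4 and Nrtn for Smoc2, and Cdca7, Hook1 and Clca3a2 for both Olfm4 and Gkn3. Axin2 was nearest to Mcm2, Clca3b and Cdca7, Rnf43 to Efna4, Clic6 and Jaml, and Sfrp5 to Nav1, Cd320 and Cd44. Within the list, profiles were most alike for Olfm4 and Gkn3 (r = 0.978) and least alike for Lgr5 and Gkn3 (r = 0.704), over 10 classes that share 1 library.

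In multiplets the genes had a smaller share of the RNA. Lgr5 had 17.0 CPM (15.9 to 18.2) in multiplets and 30.7 CPM (29.2 to 32.3) in singlets, Olfm4 had 1447 CPM in multiplets and 2845 CPM in singlets, and Sfrp5 had 8.35 CPM (7.57 to 9.19) in multiplets and 21.2 CPM (19.9 to 22.5) in singlets. All 8 ratios were below 1, between 0.39 for Sfrp5 (0.35 to 0.44) and 0.70 for Axin2 (0.66 to 0.75), with a median of 0.54. Lower by more than 1.5-fold were 6 genes, all but Axin2 and Rnf43, against 3.87% of the 11674 genes counted, and 1 gene, Sfrp5, was lower by more than 2-fold, against 1.11%. The count was again 6 with barcodes weighted equally (4.33% of genes), under TMM and median-of-ratios scaling (2.85% each), without Scrublet doublets (3.86%) and with no minimum count (8.86%). Fewer stem cells and less RNA of these genes per stem cell cannot be told apart in sums over clumps.

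Depth moved with this result, since multiplets held more UMIs. Among barcodes of 5000 to 20000 UMIs only (2599 multiplets and 4576 singlets), Lgr5 was at 19.2 CPM in multiplets and 30.0 CPM in singlets, the median ratio was 0.64, and Smoc2 moved to 0.68, which left 5 genes past the limit, against 2.18% of all genes. Paneth markers summed to 65011 CPM in multiplets and 30848 CPM in singlets, and their part in the result was not tested.

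**Figure D4:**
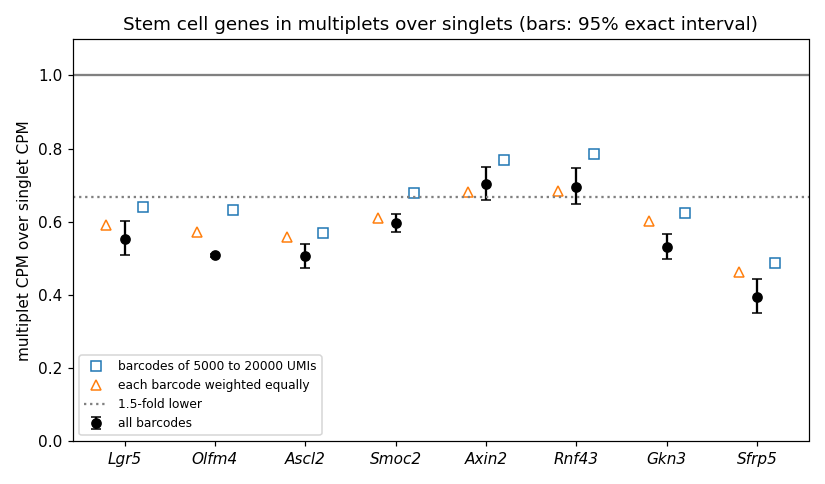
Ratio of multiplet to singlet CPM for each gene (filled circles, with 95% exact intervals), the same with each barcode weighted equally (triangles) and among barcodes of 5000 to 20000 UMIs (squares). All values lie below 1, from 0.39 for Sfrp5 to 0.70 for Axin2 over all barcodes.

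The cell classes in each multiplet were estimated as a mixture of the singlet class profiles over 400 marker genes, with the 8 genes left out. Stem cells came to 6.35% of the RNA in multiplets and to 13.6% in singlets fitted the same way with each singlet held out of the profiles, beside 7.51% by the authors' singlet labels. The fit thus overstated stem RNA, and it recovered late-1 progenitors poorly, calling that class in 67.7% of its own singlets. Weights of at least 0.15 counted as a call, which gave a stem call to 717 multiplets (19.5%) and 1544 held-out singlets (29.2%).

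In multiplets with a stem call the 8 genes stood near the level that the mixture predicted. The 717 multiplets had 79.0 CPM of Lgr5 (72.7 to 85.7) and 6269 CPM of Olfm4 and carried 67.6% of the Lgr5 UMIs of all multiplets. Their observed to predicted ratios lay between 0.82 for Sfrp5 (0.73 to 0.93) and 1.07 for Axin2 (0.99 to 1.15). In the 1544 held-out singlets with a stem call the ratios lay between 0.93 for Lgr5 (0.87 to 0.98) and 1.22 for Sfrp5 (1.13 to 1.32). Axin2 had 1.19 (1.13 to 1.25) in these singlets. Set beside held-out singlets, Sfrp5 was thus lower in multiplets with a stem call. The 140 multiplets with no call other than stem had 184 CPM of Lgr5, against 196 CPM in stem singlets (ratio 0.94, 0.79 to 1.11), and 12351 CPM of Olfm4, against 13112 CPM in stem singlets (ratio 0.94, 0.92 to 0.96). None of the 8 genes differed there by more than 1.5-fold, against 2.07% of genes higher and 4.96% lower. Every ratio was below 1, down to 0.74 for Sfrp5 (0.54 to 0.99). The intervals of Smoc2 at 0.81 (0.71 to 0.92), Gkn3 at 0.81 (0.69 to 0.95) and Axin2 at 0.81 (0.65 to 0.99) lay below 1 too.

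Where stem cells were called together with another class, the genes differed from each other. In 76 multiplets called stem and Paneth, the pairing of the crypt base, Lgr5 had 61.4 CPM (47.6 to 78.0) and an observed to predicted ratio of 0.98 (0.76 to 1.24), Gkn3 a ratio of 1.28 (1.05 to 1.55) and Olfm4 a ratio of 0.82 (0.80 to 0.85). In 108 called stem and goblet, Lgr5 had a ratio of 0.65 (0.49 to 0.84), Gkn3 of 0.46 (0.35 to 0.60) and Axin2 of 1.13 (0.91 to 1.38). Held-out singlets called stem and goblet, 111 in number, gave 0.58 for Lgr5 (0.38 to 0.86), 0.71 for Gkn3 (0.51 to 0.96) and 1.11 for Axin2 (0.81 to 1.497). They gave 0.35 for Olfm4 (0.33 to 0.37), 0.55 for Ascl2 (0.35 to 0.81) and 1.22 for Smoc2 (1.02 to 1.44). The prediction for this call was thus off in singlets too, by gene. Only 2 held-out singlets were called stem and Paneth.

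Multiplets with transit amplifying or early progenitor cells and no stem call, 1811 in number, held less of the genes than predicted. Lgr5 reached 0.28 of its predicted UMIs (0.25 to 0.33) in these multiplets and 0.36 (0.32 to 0.42) in the 2316 held-out singlets with the same calls. Sfrp5 reached 0.23 (0.19 to 0.26) in multiplets and 0.47 (0.41 to 0.53) in held-out singlets, and Rnf43 0.60 (0.56 to 0.65) in multiplets and 0.66 (0.61 to 0.72) in held-out singlets. Over all barcodes the median of the 8 ratios was 0.57 in multiplets and 0.84 in held-out singlets. A shortfall was thus measured in singlets too.

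Multiplets called Paneth without a stem call held more of the genes than Paneth singlets did. In these 198 multiplets Lgr5 had 18.4 CPM (93 UMIs), against 5.2 CPM (12 UMIs) in the 88 Paneth singlets, a ratio of 3.53 (1.93 to 7.09). Olfm4 had 562 CPM in the multiplets and 52.9 CPM in the singlets, a ratio of 10.6 (8.87 to 12.9), and Ascl2 had 61 UMIs in the multiplets and 2 UMIs in the singlets, a ratio of 13.9 (3.69 to 117). Gkn3 had 67 UMIs in the multiplets and 0 UMIs in the singlets, at least 10.2-fold higher when set against 3 counts. Smoc2 had 36.6 CPM in the multiplets and 22.5 CPM in the singlets, a ratio of 1.62 (1.19 to 2.25). Of the 7 genes with at least 50 UMIs in either group, Olfm4 and Smoc2 reached that number in both, and the other 5 reached it through the multiplets alone, which had more UMIs in all, so no count is drawn from them. Of all genes counted, 26.3% were higher in the multiplets by more than 1.5-fold. Sfrp5, with 13 UMIs in the multiplets and 0 UMIs in the singlets, was not counted.

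The depth was alike, with a median of 26651 UMIs in these multiplets and 25594.5 UMIs in the Paneth singlets. Of the 198 multiplets, 156 had Paneth as their only call, and in these Lgr5 had 15.5 CPM, 2.98-fold (1.59 to 6.07) its level in Paneth singlets, and Olfm4 had 358 CPM, 6.78-fold (5.63 to 8.22). Only Lgr5, Olfm4 and Smoc2 could then be counted. Lgr5 was counted through the multiplets alone, so no count is drawn from it. Of the genes that reached 50 UMIs in both groups, Olfm4 passed 1.5-fold and Smoc2 did not (ratio 1.40, 1.004 to 1.97). Of all genes counted, 4.88% passed. The mixture gave stem cells 2.71% of the RNA of the 198 multiplets, below the limit for a call. Against that prediction the multiplets had an observed to predicted ratio of 1.55 for Lgr5 (1.25 to 1.90) and 0.92 for Olfm4 (0.88 to 0.95). In the 114 held-out singlets called Paneth without stem the ratio was 0.70 for Lgr5 (0.36 to 1.23) and 0.24 for Olfm4 (0.20 to 0.29). The prediction was thus well off there for Olfm4, while the interval of Lgr5, from 12 UMIs, was wide and included 1. The share of their reads that came from stem cells under the limit, or from transit amplifying cells and early progenitors, was not measured directly.

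In the 971 multiplets called goblet without a stem call Olfm4 had 344 CPM, against 217 CPM in 985 goblet singlets (ratio 1.59, 1.51 to 1.67), and Axin2 had 22.6 CPM, against 14.4 CPM in goblet singlets (ratio 1.58, 1.28 to 1.94). These were the 2 genes past 1.5-fold of 7 counted, against 13.1% of all genes. Lgr5 had 3.64 CPM in the multiplets and 4.13 CPM in the singlets (ratio 0.88, 0.57 to 1.38). The 42 goblet singlets marked by Scrublet moved these values. Without them Olfm4 had 139 CPM in goblet singlets (ratio 2.47, 2.32 to 2.64), Ascl2 had 8.82 CPM in the multiplets and 3.88 CPM in the singlets (ratio 2.27, 1.54 to 3.44), and the ratio for Lgr5 was 1.19 (0.73 to 1.99). Axin2 had a ratio of 1.80 (1.44 to 2.26). Ascl2 reached 50 UMIs through the multiplets alone (126 UMIs, against 33 UMIs in the singlets), so no count is drawn from it. Of all genes counted, 14.9% were then higher by more than 1.5-fold. The multiplets were chosen by call and the goblet singlets were not. In the 921 held-out singlets called goblet without stem, Lgr5 had 1.60 CPM (14 UMIs) and Olfm4 133 CPM. Ascl2 had 4.58 CPM and Axin2 11.3 CPM there. These 4 levels lay below those of the multiplets, whereas Smoc2 had 48.4 CPM in both. In the 352 multiplets with goblet as the only call Olfm4 had 70.9 CPM, against 217 CPM in goblet singlets (ratio 0.33, 0.29 to 0.37). Smoc2 had 21.4 CPM, against 57.4 CPM in goblet singlets (ratio 0.37, 0.29 to 0.48). Of the 6 genes counted there, only Olfm4 and Smoc2 reached 50 UMIs in both groups. The rest reached it through the singlets alone, so no count is drawn from them. Of all genes counted, 9.04% were lower by more than 1.5-fold. Without the Scrublet doublets 8.83% were, and the ratio was 0.51 for Olfm4 (0.44 to 0.58) and 0.38 for Smoc2 (0.30 to 0.49). The goblet singlets were not chosen by call, so part of such a difference is built in. The 624 held-out singlets with goblet as their only call had 75.3 CPM of Olfm4, near the 70.9 CPM of the multiplets. They had 31.4 CPM of Smoc2, above the 21.4 CPM of the multiplets. The median depth was 14391 UMIs in the 971 multiplets and 8905 UMIs in goblet singlets.

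**Figure D5:**
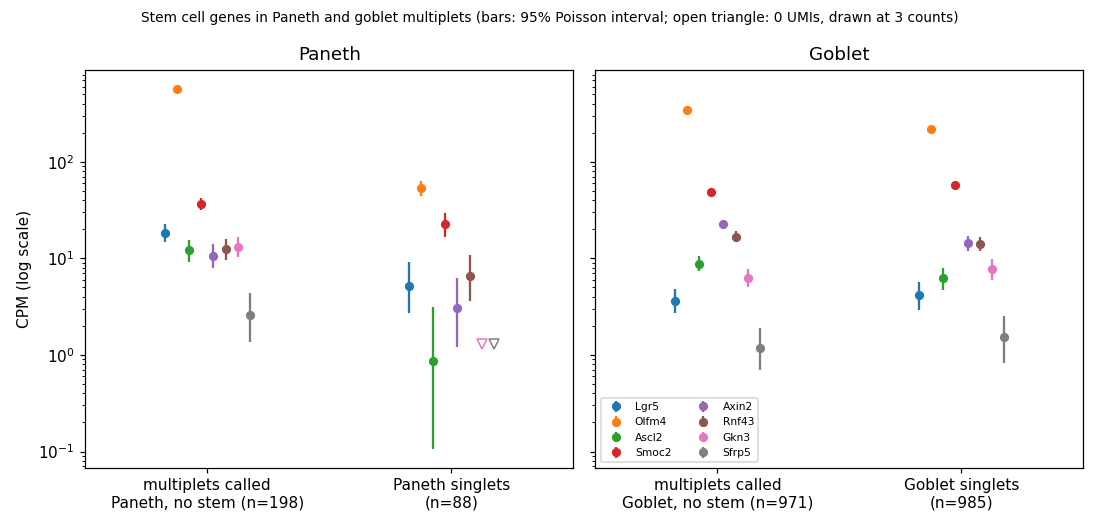
CPM (log axis) of the 8 genes in multiplets called Paneth (left panel) or goblet (right panel) without a stem call and, to their right, in singlets of that class, with 95% Poisson intervals; open triangles are genes with 0 UMIs, drawn at 3 counts. Lgr5 stands at 18.4 CPM in Paneth multiplets and 5.2 CPM in Paneth singlets, and at 3.64 CPM in goblet multiplets and 4.13 CPM in goblet singlets (3.06 CPM without Scrublet doublets). Held-out singlets called goblet without stem, which are not drawn, had 1.60 CPM.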

How the data were processed

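The authors deposited 1 table of UMI counts per gene symbol and barcode for each library, and a table with a quality flag and, for singlets, a cell class; no source used here says how classes were assigned. Per the labels, tissue was dissociated mechanically and enzymatically and libraries were made with 10x Chromium 3′ chemistry. The submitters' processing notes name Cell Ranger 4.0.0 and the mm10 build. The annotation lists 6710 singlet barcodes, of which the 5279 with the passing flag are in the count table, and 5607 multiplet barcodes, all with that flag, of which 3671 are in the count table. All barcodes of the count tables were used. The lung libraries were not analysed here.

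Total depth was 50645279 UMIs in multiplets and 47764845 in singlets. UMIs were summed per class or library and divided by the total (CPM). Intervals at 95% were exact (Poisson for sums, conditional binomial for ratios, Clopper-Pearson for shares). Genes were counted as differing at over 1.5-fold, with at least 50 UMIs in either group. Shares were compared after thinning cells to 1500 UMIs, and cycling meant at least 2 marker UMIs of 1500. The mixture used 40 genes per class, a Poisson likelihood and 300 iterations, and was checked on simulated counts. Genes named beyond the 8 were those with the most similar profiles (8 for the mean, 3 for each gene) and, per pathway list, the 2 highest and 2 lowest ratios, others past 1.5-fold (not all of the crypt base columnar list) and further list members. Not every gene that this rule names is reported here. The 8 genes, the lists and the comparisons were chosen with earlier results of these data known. Tools were Python 3.11.15, numpy 2.4.6, scipy 1.17.1, scanpy 1.11.5 (Scrublet), R 4.3.3 and edgeR 4.0.16 (TMM scaling alone).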

Additional observations from a re-analysis of the deposited data

How the results depend on the processing

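No paired analysis was possible because each group is 1 library and no test was run. With each barcode weighted equally, without Scrublet doublets and under median-of-ratios scaling, the number of genes past 1.5-fold was as first given in each of the 4 steps between classes and for multiplets over singlets. With no minimum count it was 6 instead of 8 for early over late-2 progenitors, since genes with 0 UMIs in late-2 progenitors were then not counted, and as first given elsewhere. At a 2-fold limit, 1 gene (Lgr5) instead of 2 passed between transit amplifying cells and early progenitors, and 1 gene (Sfrp5) instead of 6 was lower in multiplets. TMM and median-of-ratios scaling moved the median log2 ratio of all genes from -0.10 to 0.00 and the median ratio of the 8 genes to 0.58. The share of stem cells with an Lgr5 UMI was 59.7% at 5000 UMIs and 64.2% without thinning, and the share with at least 3 genes was 95.4% at 5000 UMIs; shares rise with depth by construction. Cycling at 4 UMIs or more left 4 stem cells, in which 3 genes were past 1.5-fold, against 77.3% of all genes. At 2 UMIs none of the 8 genes was, against 20.4% of all genes, though Ascl2, Axin2, Rnf43 and Sfrp5 had under 50 UMIs in the cycling cells. In multiplets with Paneth as the only call, Olfm4 passed 1.5-fold over Paneth singlets and Smoc2 did not, against 4.88% of all genes. Lgr5 reached 50 UMIs there through the multiplets alone. That comparison was chosen after seeing the data, as were the non-cycling cells and the tuft cells without doublets. Olfm4 and Axin2 were higher in goblet multiplets without a stem call than in goblet singlets. With goblet as the only call they were lower, at ratios of 0.33 and 0.44. Axin2 had 22 UMIs in those multiplets, so no count is drawn from it. The goblet singlets were not chosen by call. Held-out singlets with goblet as their only call had 75.3 CPM of Olfm4 and 6.50 CPM of Axin2. The multiplets had 70.9 and 6.29 CPM. Leaving out Scrublet doublets raised the early over late-1 ratios of Lgr5, Sfrp5, Ascl2 and Olfm4 by over 1.5 times (64.8, 60.4, 39.4 and 37.8) and, chosen after seeing the data, that of Olfm4 in goblet multiplets to 2.47. The late-1 levels of Lgr5 and Sfrp5 then rested on 2 and 3 UMIs. No other ratio past the limit changed direction under the alternatives run. With 1 library per group, differences between animals or dissociations could not be measured, and counts under 50 UMIs in the rarer classes limit the order of the lowest levels.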
